A study of Mus musculus with 18 samples.

Results

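The genes described here encode dyneins and the factors that assemble them. They were chosen by gene symbol alone. For axonemal chains, the symbol began with Dnah or Dnai followed directly by a digit, or was Dnal1, Dnal4 or Dnali1. For the rest, it began with Dync1 or Dync2 (cytoplasmic chains), Dynl (light chains) or Dnaaf (assembly factors), or was Zmynd10. Of 22298 gene rows, 40 matched. They comprise 5 outer arm heavy chains, 10 inner arm heavy chains, 3 axonemal light chains, 5 subunits of cytoplasmic dynein-1, 2 subunits of dynein-2, 9 light chains shared between dyneins and 6 assembly factors. No axonemal intermediate chain matched, because the table lists those genes under older symbols such as Dnaic1 and Wdr63. They were looked at separately.

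RNA came from frozen whole testis of adult C57BL/6 mice, was extracted with Trizol and went into stranded libraries of total RNA. Both genotypes differ at Taf7l, an X-linked gene for a germ-cell paralogue of a TFIID subunit: 3 libraries were wild type (TWT) and 3 carried a Taf7l knock-in allele (TKI). The series title names a missense mutation in TAF7L. The labels give no further allele, treatment or exact age, and they do not say whether each library is a different animal. The p-values therefore reflect only the spread among these libraries, some of which may be technical. Of 18 samples named in the labels, the 12 of sorted germ cells (pachytene spermatocytes, round spermatids) were not analysed here.

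Dyneins are motors that walk along microtubules by hydrolysing ATP in their heavy chains. Axonemal dyneins form the outer and inner arms on the doublet microtubules of cilia and of the sperm tail, where they make the tail beat, and each arm is put together in the cytoplasm by dedicated assembly factors before it is carried into the axoneme. Cytoplasmic dynein-1 moves cargo and positions spindles and nuclei, dynein-2 carries intraflagellar transport back to the cell body, and the small light chains of the LC8, Tctex and roadblock families sit at the base of the complex and are shared by several dyneins.

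The libraries held between 17431309 and 21446420 counts over gene rows, and between 18262 and 18427 genes had a count in each. TMM scaling factors lay between 0.976 and 1.024. Taf7l itself was present in every library, at 27.7, 29.1 and 30.2 CPM (counts relative to the TMM-scaled library total) in wild type and 26.0, 27.2 and 27.3 CPM in knock-in testis. Its log2 fold change was -0.11 ± 0.08 (SE; adjusted p = 0.632, edgeR quasi-likelihood test with Benjamini-Hochberg adjustment), and since the labels describe an altered allele and not a lost one, its level does not check them. Testis markers were abundant, with Prm1, a protamine, at 50090 to 77580 counts a library. Of 7 markers of multiciliated and efferent duct cells, which carry dynein-driven cilia, 3 were present throughout: Deup1 at 2417 to 3171 counts a library, Foxj1 at 487 to 862 and Ccno at 58 to 117. The other 4 were near 0, with Pax8 at 1 to 14 counts, Gmnc at 4 to 12, Mcidas at 0 to 2 and Cyp2a5 at 0 to 1. Of 5 epididymal markers, Rnase10 had 120 to 180 counts a library, Defb15 had 0 to 4, Lcn9 had 0 to 1, and Lcn8 and Spint4 had 0 in all 6 libraries. In whole testis, fewer cells of a type and less RNA per cell cannot be told apart, and this holds for every comparison below.

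Promoter sequences are shown for the 5 dynein genes whose promoters share a palindrome, among them Dynlrb2, the gene nearest to the threshold of the genotype test, and the Dnah7 copies. The reference table of RefSeq promoters (assembly GRCm38.p6, the same build as mm10) held 33 of the 40 genes and none for Dnaaf1, Dnah3, Dync1li2, Dync2li1, Dynll2, Dynlt1a and Dynlt1b. Each sequence is the 250 bases before 1 listed start of the gene, 5′ to 3′ on the gene's strand. For Dynlrb2 that start is the start of the RefSeq gene span. For Dnah6, Dnah7a, Dnah7b and Dnah7c the span begins further upstream, so the window lies partly or wholly within the gene. The capitals mark the palindrome GTTGCNNNGCAAC, in which N is any base. Dynlrb2 is on the plus strand at chr8:116504765-116505014, Dnah6 on the minus strand at chr6:73221632-73221881, Dnah7a on the minus strand at chr1:53706785-53707034, Dnah7b on the plus strand at chr1:46066603-46066852 and Dnah7c on the plus strand at chr1:46425268-46425517.
Dynlrb2: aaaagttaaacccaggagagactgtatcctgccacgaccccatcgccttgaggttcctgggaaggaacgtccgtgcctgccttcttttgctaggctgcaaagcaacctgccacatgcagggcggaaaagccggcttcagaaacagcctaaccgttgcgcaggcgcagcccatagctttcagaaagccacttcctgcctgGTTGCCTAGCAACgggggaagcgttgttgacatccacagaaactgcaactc
Dnah6: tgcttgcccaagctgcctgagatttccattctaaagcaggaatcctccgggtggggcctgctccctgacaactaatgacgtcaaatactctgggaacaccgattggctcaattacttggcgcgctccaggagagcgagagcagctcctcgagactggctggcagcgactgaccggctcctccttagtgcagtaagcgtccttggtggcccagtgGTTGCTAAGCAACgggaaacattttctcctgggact
Dnah7a: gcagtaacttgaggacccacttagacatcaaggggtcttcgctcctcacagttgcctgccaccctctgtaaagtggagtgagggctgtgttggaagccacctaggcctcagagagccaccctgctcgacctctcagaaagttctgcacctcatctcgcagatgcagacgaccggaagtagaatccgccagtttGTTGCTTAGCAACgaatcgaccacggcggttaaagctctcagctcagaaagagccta
Dnah7b: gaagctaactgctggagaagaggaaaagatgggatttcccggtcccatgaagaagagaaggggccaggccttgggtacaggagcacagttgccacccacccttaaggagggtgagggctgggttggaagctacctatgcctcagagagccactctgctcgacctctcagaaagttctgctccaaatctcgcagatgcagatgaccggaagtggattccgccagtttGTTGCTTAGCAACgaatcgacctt
Dnah7c: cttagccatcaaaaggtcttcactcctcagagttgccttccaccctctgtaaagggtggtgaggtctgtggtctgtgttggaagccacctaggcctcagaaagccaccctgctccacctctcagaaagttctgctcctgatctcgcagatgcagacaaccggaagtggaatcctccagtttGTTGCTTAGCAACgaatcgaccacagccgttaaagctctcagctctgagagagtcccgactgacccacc

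The palindrome resembles the X-box bound by RFX factors, which are known to act on ciliary genes. It was defined, after these sequences had been read, as the longest inverted repeat with a 3-base gap shared by the Dynlrb2 and Dnah7c promoters. Those 2 matches were therefore fixed in advance, and the count among the dyneins is a description and no test of enrichment. The palindrome was present in 5 of the 33 matched dynein promoters (15.2%), those printed above, and in 0.233% of all 27025 genes with a promoter of the same length. Of the 5, only Dnah6 is neither in the defining pair nor a Dnah7 copy. The palindrome began 51 bases before the listed start used in Dynlrb2, 36 in Dnah6, 57 in Dnah7a, 24 in Dnah7b and 69 in Dnah7c. The Dnah7 promoters are copies of each other, with 69.3% to 73.1% of aligned bases identical, so their 3 matches are not separate finds. Motifs searched on both strands besides this began with the X-box core GTTGCC, found in 9 of 33 dynein promoters (27.3%) against 11.8% of all genes. The core overlaps the palindrome in Dynlrb2, and the 9 include all 3 Dnah7 copies, so they are not 9 separate finds. The cAMP response element TGACGTCA was in 1 (Dnah6, 3.03%) against 1.77%, and TATAAA was in 2 (Dnah12 and Zmynd10, 6.06%) against 14.3%. A match is a run of letters in a window and not a measured site.

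Another pair of promoters shows how alike the Tctex light chain copies are. Dynlt1c lies on the plus strand, with its promoter at chr17:6601529-6601778, and Dynlt1f on the minus strand, at chr17:6655940-6656189. The Dynlt1f window overlaps its RefSeq gene span, which reaches position 6655965. The capitals mark the longest run the pair shares, 52 bases.
Dynlt1c: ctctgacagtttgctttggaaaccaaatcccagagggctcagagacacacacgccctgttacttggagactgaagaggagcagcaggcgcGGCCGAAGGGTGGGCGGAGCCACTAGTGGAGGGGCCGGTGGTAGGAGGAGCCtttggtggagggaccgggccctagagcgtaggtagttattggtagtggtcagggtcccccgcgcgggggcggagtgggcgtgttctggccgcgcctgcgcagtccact
Dynlt1f: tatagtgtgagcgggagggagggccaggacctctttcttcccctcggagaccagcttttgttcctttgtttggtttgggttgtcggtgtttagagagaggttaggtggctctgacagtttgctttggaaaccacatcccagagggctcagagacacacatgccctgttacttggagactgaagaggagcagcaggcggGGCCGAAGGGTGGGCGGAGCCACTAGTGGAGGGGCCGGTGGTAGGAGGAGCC

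When the Dynlt1f promoter was shifted by 108 bases against that of Dynlt1c, 139 of 142 aligned bases were identical (97.9%). The 4 copies Dynlt1a, Dynlt1b, Dynlt1c and Dynlt1f lie between positions 6306344 and 6655965 of chromosome 17. How reads shared by copies were counted is not given in the sources used here, so the values of single Dynlt1 and Dnah7 copies are uncertain.

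Levels between genes were compared per length, as the authors' FPKM (fragments relative to transcript length and library total). The dyneins spanned from 0.287 to 610 FPKM as means of the 6 libraries. Dynlt1b, a Tctex light chain, was highest of the genes matched by the rule, at 591, 557 and 549 FPKM in wild type and 673, 649 and 641 FPKM in knock-in testis. Next came Dnaaf1, an assembly factor of the leucine-rich repeat type, at 427, 418 and 402 FPKM against 441, 405 and 436 FPKM. Dynll1, the LC8 light chain, followed at a mean of 281 FPKM, and its range (269 to 291) overlapped that of the heavy chain Dnah8. These 3 levels stood in the order Dynlt1b, Dnaaf1, Dynll1 in every library, with no overlap between their ranges. Tcte3, one of the dynein chains under older symbols and so not matched by the rule, had a mean of 675 FPKM. Its range of 585 to 734 FPKM overlapped that of Dynlt1b.

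Among the outer arm heavy chains, the sperm-tail genes Dnah8 and Dnah17 were far above the others. Dnah8 was at 298, 268 and 280 FPKM in wild type and 264, 257 and 266 FPKM in knock-in testis. Dnah17, its partner in the sperm outer arm, was at 98.8, 91.2 and 91.7 FPKM against 95.8, 91.9 and 94.8 FPKM. The ratio of Dnah8 to Dnah17 was 3.0015 ± 0.0545 (SD, n = 3) in wild type and 2.79 ± 0.0284 (SD, n = 3) in knock-in testis, a difference larger than these SDs that was not tested. The heavy chains that build outer arms in airway and other motile cilia were low in testis: Dnah9 was at a mean of 1.01 FPKM, Dnah11 at 0.292 FPKM and Dnah5 at 0.287 FPKM, each overlapping the next. Over the libraries of both genotypes, Dnah8 was 276 ± 53.2 times Dnah9 and 972 ± 179 times Dnah5 (SD, n = 6). Its transcript is also long, and Dnah8 had the highest count of any gene in 5 of 6 libraries and took 0.415% to 0.483% of all counts. The 40 genes together took 1.59% to 1.71%.

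The inner arm heavy chains formed a gradual series. Dnah1 led with 43.1 to 48.5 FPKM over the 6 libraries and did not overlap Dnah14, the next (28.4 to 36.9 FPKM). Dnah14, Dnah7b, Dnah3 and Dnah7c followed with means from 31.7 down to 24.3 FPKM and overlapping neighbours, then Dnah6 (19.5 FPKM) and Dnah10 (19.4 FPKM), which overlapped each other, and Dnah12 (15.3 FPKM). The rows of Dnah7a at 8.16 FPKM and Dnah2 at 4.57 FPKM were lowest and overlapped. Both levels, and that of Dnah14, are uncertain for reasons given below. The axonemal light chains Dnali1, a p28 type chain of inner arms, and Dnal4 were at 66.8 and 59.3 FPKM with overlapping ranges, above Dnal1, the outer arm light chain, at 8.48 FPKM.

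The cytoplasmic dynein-1 heavy chain Dync1h1 was at 142 FPKM, 12.2 ± 0.589 times (SD, n = 6) the dynein-2 heavy chain Dync2h1. For the paired subunits of dynein-1, testis held more of the second gene: the intermediate chain Dync1i2 was 9.53 ± 1.09 times Dync1i1. Among the shared light chains, Dynll1 was 30.0 ± 2.17 times Dynll2 in wild type and 24.7 ± 3.02 times in knock-in testis (SD, n = 3 each). Dynlrb2, a roadblock chain known from ciliated tissue and testis, was 7.14 ± 0.998 times the widespread Dynlrb1 over both genotypes (SD, n = 6). Dynlt1b was 2.33 ± 0.113 times Dynlt1f, with Dynlt1a at 23.3 FPKM, Dynlt3 at 6.71 FPKM and Dynlt1c at 3.88 FPKM. Of the assembly factors, Zmynd10 (142 FPKM) followed Dnaaf1, and Dnaaf3, Dnaaf5, Dnaaf2 and Dnaaf4 lay at 31.4, 25.1, 20.6 and 9.73 FPKM without overlap between neighbours.

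**Figure D1:**
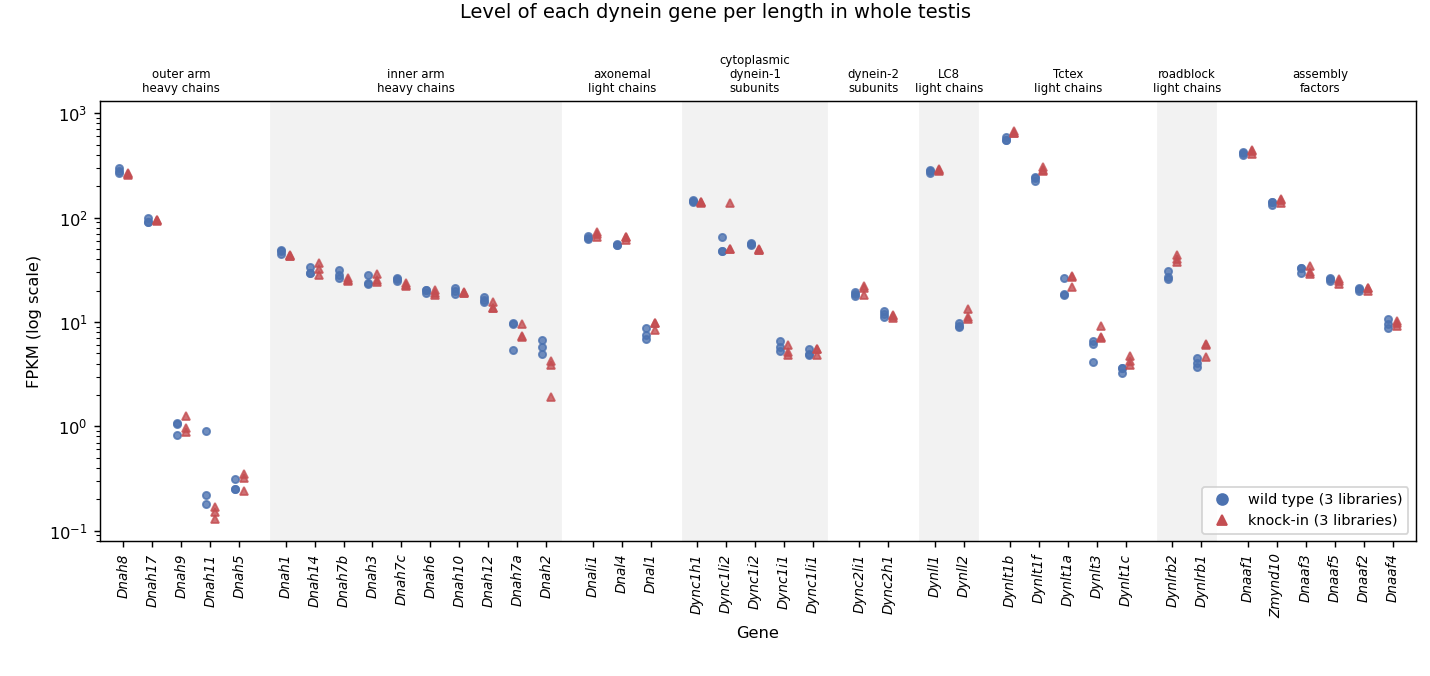
FPKM (log axis) of each of the 40 dynein genes in each library, grouped by role, with circles for the 3 wild-type and triangles for the 3 knock-in libraries. Dynlt1b (mean 610 FPKM) and Dnaaf1 (421 FPKM) are highest, Dnah11 and Dnah5 lie below 1 FPKM, and the lone high point of Dync1li2 (137 FPKM) is knock-in library 1.

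For several genes the FPKM and the counts did not go together across libraries. Counts divided by FPKM and library size give the length the authors' FPKM implies, which would be equal in all libraries if both used the same transcript length. For Dync1li2, a light intermediate chain, it differed 2.71 times between libraries: FPKM was 48.0, 48.3 and 65.3 in wild type and 137, 50.3 and 50.5 in knock-in testis, while CPM was 157, 150.9 and 169 against 170, 158 and 166. The same ratio was 5.09 for Dnah11, 2.03 for Dynlt3, 1.87 for Dnah2, 1.59 for Dnal1, 1.504 for Dnah7a, 1.42 for Dynlt1a and 1.32 for Dnah14. The FPKM of these genes is therefore uncertain and their order in level with it. The implied length itself was 950 bases for Dnah7a and 1056 for Dnah2, where 14 heavy chains had 12632 to 20151 bases. The rows of Dnah7a and Dnah2 may thus not stand for whole heavy chain transcripts.

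The question that the design poses for these genes is which of them differ between knock-in and wild type, and counts were used for it. No dynein gene passed the test: 0 of 40 had an adjusted p under 0.05 by edgeR's quasi-likelihood test, where 155 of 15787 tested genes (0.982%) did, 0.88% higher and 0.101% lower. All 40 dyneins passed the filter on low counts. At an unadjusted p under 0.05 there were 11 of 40, 8 higher and 3 lower, against 12.9% of all genes tested (7.83% higher, 5.09% lower). DESeq2 called 3 of 40, against 2.91% of all genes, and limma on log2(FPKM + 0.1) called 3, against 1.59%. Limma on log2(FPKM + 1) called 2, against 1.67%, and edgeR without the filter on low counts called 1, against 0.885%. The authors' deposited table gives an adjusted p under 0.05 to 4 of 40, against 2% of its gene rows. The median log2 fold change of the 40 was 0.02, that of all genes 0.003, and 22 of the 40 were above 0.

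For 11 of 40 genes the wild-type and knock-in CPM values did not overlap, against 18.5% of all genes tested. Higher in all 3 knock-in libraries were 8 (10.1% of all genes): Dynll2, Dynlt1a, Dynlt1b, Dynlt1c, Dynlt1f, Dynlrb1, Dynlrb2 and Dnal4. Lower in all 3 were 3 (8.41% of all genes): Dnah7c, Dync1i2 and Dnah11. The first 7 of the higher genes are shared light chains, and none of the 15 axonemal heavy chains was among the higher ones.

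**Figure D2:**
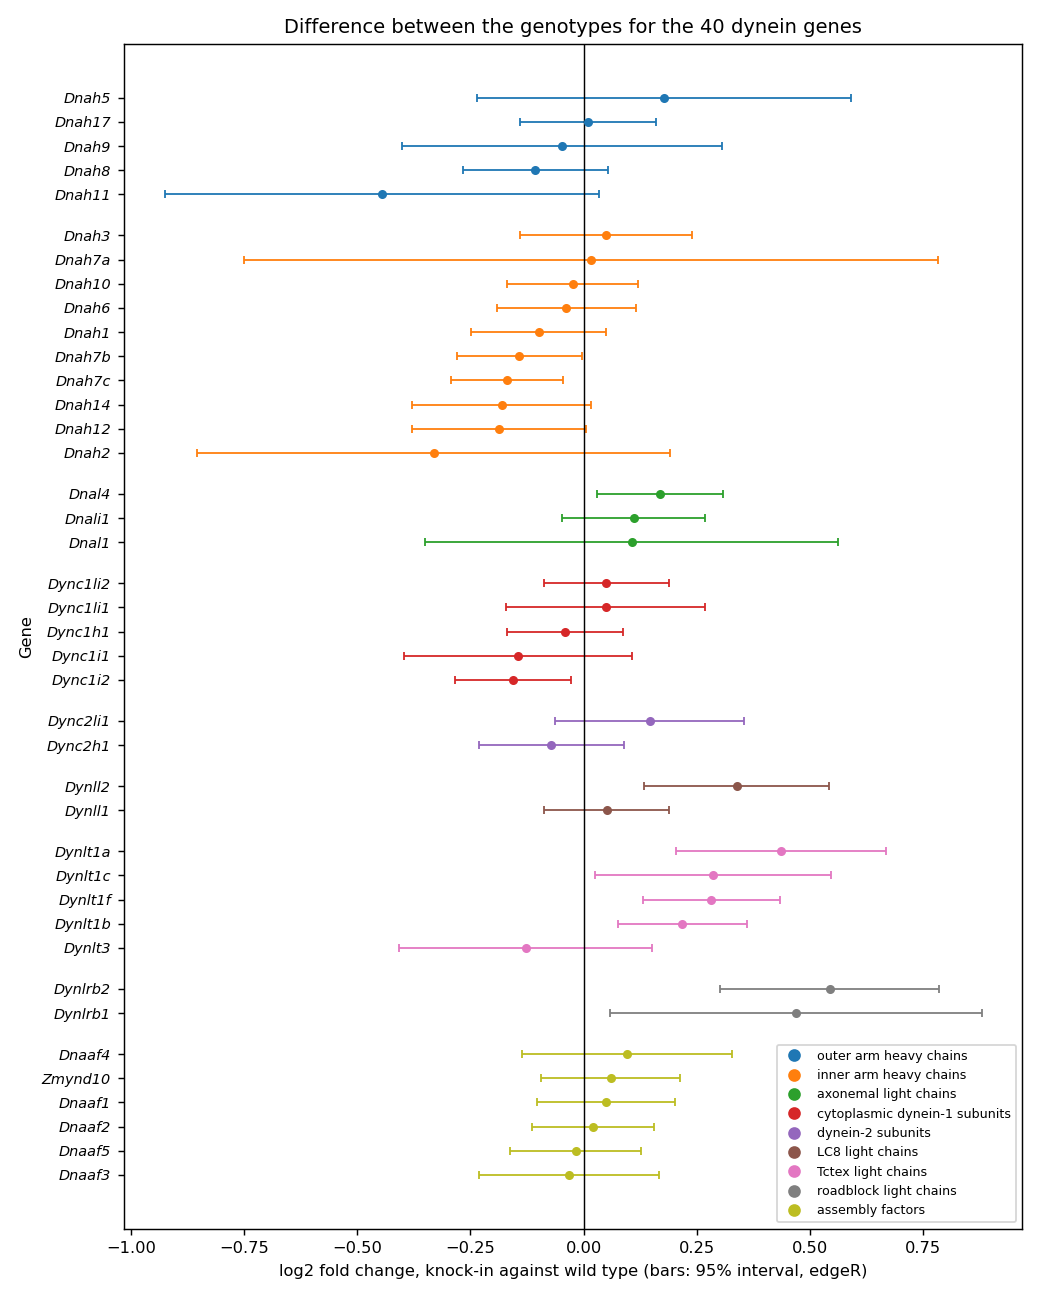
Log2 fold change of knock-in against wild type for each dynein gene, with the 95% interval from edgeR, ordered by role. The shared light chains lie mostly to the right of 0 (8 of 9), the axonemal heavy chains mostly to the left (11 of 15), and none passed the adjusted threshold.

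The nearest to the threshold was Dynlrb2, the roadblock light chain that binds the dynein intermediate chains. It had 387, 334 and 302 counts in wild type and 471, 508 and 624 in knock-in testis, or 21.1, 17.6 and 17.2 CPM against 25.9, 26.3 and 29.4 CPM. Every knock-in library was above every wild-type library. The log2 fold change was 0.54 ± 0.11 (SE) with an adjusted p of 0.0523 by edgeR. Settings placed it on either side of the threshold: the adjusted p was 0.00336 with DESeq2, 0.0199 with limma on log2(FPKM + 0.1), 0.0430 in edgeR without the filter, 0.161 with the length trend removed and 0.231 without knock-in library 3, and the authors' deposited table gives 0.0039. Dynlrb1, its ubiquitous relative, had 3.33, 3.85 and 3.52 CPM against 4.07, 5.38 and 5.37 CPM, with a log2 fold change of 0.47 ± 0.18 and an adjusted p of 0.318 by edgeR.

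The Tctex light chains Dynlt1a, Dynlt1b, Dynlt1c and Dynlt1f all had higher values in each knock-in library than in any wild-type library. Dynlt1a was at 55.7, 44.8 and 45.9 CPM in wild type and 73.8, 61.1 and 63.2 CPM in knock-in testis, a log2 fold change of 0.44 ± 0.10 (adjusted p = 0.0977, edgeR). Dynlt1f was at 253, 234 and 223 CPM against 289, 270 and 305 CPM, a log2 fold change of 0.28 ± 0.07 (adjusted p = 0.0987, edgeR). Dynlt1b, by far the most abundant copy, was at 604, 541 and 542 CPM against 685, 633 and 645 CPM.

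Its log2 fold change was 0.22 ± 0.06 (adjusted p = 0.176, edgeR), and that of Dynlt1c, at 12.5, 10.7 and 11.9 CPM against 14.5, 15.3 and 13.1 CPM, was 0.29 ± 0.12 (adjusted p = 0.341, edgeR). With the 4 copies added up, the sums were 925, 831 and 824 CPM against 1063, 979 and 1027 CPM. The summed log2 fold change was 0.25 ± 0.06 (adjusted p = 0.125, edgeR). Dynlt1a and Dynlt1f passed with DESeq2 (adjusted p 0.00669 and 0.0131), and Dynlt1a, Dynlt1b and Dynlt1f passed in the authors' deposited table (adjusted p 0.00764, 0.0495 and 0.0126). Dynlt3, the X-linked member of the family, had 11.03, 14.1 and 12.2 CPM against 11.9, 10.9 and 11.4 CPM, with overlapping groups and a log2 fold change of -0.13 ± 0.13.

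Within 200000 bases on either side of the Dynlt1 copies there were 4 other tested genes, Tulp4, Tmem181a, Sytl3 and Ezr. Of these, 0 passed the edgeR or the DESeq2 test and 1 had an unadjusted p under 0.05 in edgeR (12.9% of all genes). Their median log2 fold change was -0.05, and only Ezr was above 0 (0.33 ± 0.12, adjusted p = 0.295, edgeR). Tulp4 was at -0.002 ± 0.05, Tmem181a at -0.17 ± 0.08 and Sytl3, a low gene, at -0.11 ± 0.25, so no common direction is shown.

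Of the LC8 light chains, which also serve as hubs for many other protein pairs, Dynll2 had 29.2, 28.7 and 30.9 CPM in wild type and 34.7, 41.6 and 35.8 CPM in knock-in testis. The groups did not overlap, and the log2 fold change was 0.34 ± 0.09 (adjusted p = 0.142, edgeR). The far more abundant Dynll1 had 356, 331 and 318 CPM against 362, 335 and 345 CPM, with overlapping groups and a log2 fold change of 0.05 ± 0.06. For the 9 shared light chains taken as 1 group, a grouping made after their values had been seen, the median log2 fold change was 0.29 and 8 were above 0. Their sum was 1346, 1226 and 1206 CPM in wild type and 1501, 1398 and 1454 CPM in knock-in testis, with Dynlt1b as the largest part. The group leaves out chains under older symbols that did not share this direction. Tcte3 was at -0.14 ± 0.08, Tctex1d2 at -0.04 ± 0.07 and Tctex1d1 at 0.01 ± 0.10, and Tctex1d4 was not tested.

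**Figure D3:**
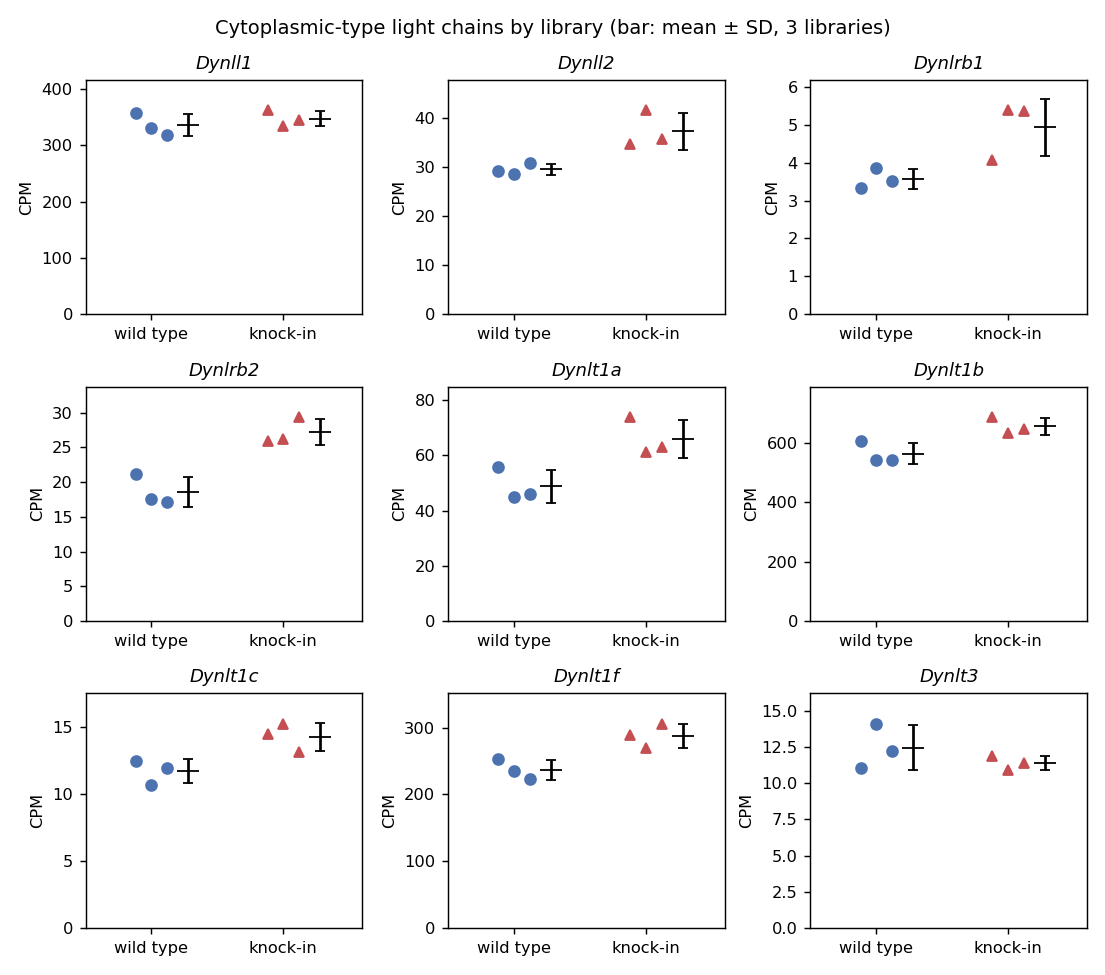
CPM of the 9 shared light chains in each library, with the mean ± SD of 3 libraries per genotype. In 7 panels every knock-in library lies above every wild-type library, and Dynll1 and Dynlt3 overlap.

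Of the 15 axonemal heavy chains, 11 had a log2 fold change below 0 and 4 above, from -0.45 to 0.18, and none passed the test. Dnah8, the sperm outer arm heavy chain, had 4948, 4337 and 4691 CPM in wild type and 4556, 4052 and 4375 CPM in knock-in testis. The groups overlapped, with a log2 fold change of -0.11 ± 0.07 (adjusted p = 0.599, edgeR), and for Dnah17 it was 0.01 ± 0.07, a 95% interval of -0.14 to 0.16. Dnah11 had 3.004, 3.17 and 3.98 CPM against 2.81, 2.53 and 2.12 CPM, which is 45 to 70 counts a library, and a log2 fold change of -0.45 ± 0.22 (adjusted p = 0.429, edgeR). Dnah5 and Dnah9, both low, were at 0.18 ± 0.19 and -0.05 ± 0.16.

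Among inner arm heavy chains, Dnah7c was lower in each knock-in library, at 409, 373 and 396 CPM in wild type and 350, 353 and 345 CPM in knock-in testis. Its log2 fold change was -0.17 ± 0.06 (adjusted p = 0.224, edgeR). Dnah12 had 277, 234 and 249 CPM against 249, 206 and 213 CPM (-0.19 ± 0.09), and Dnah14 had 453, 389 and 429 CPM against 422, 336 and 364 CPM (-0.18 ± 0.09), both with overlapping groups. For Dnah14 the deposited FPKM went the other way, at 0.07 on the log2(FPKM + 0.1) scale by limma.

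Dnah1, the most abundant inner arm heavy chain per length, had 828, 714 and 768 CPM in wild type and 744, 689 and 723 CPM in knock-in testis, a log2 fold change of -0.10 ± 0.07 with overlapping groups. Dnah2 had 5.41, 5.86 and 6.59 CPM against 4.13, 3.47 and 6.54 CPM, and -0.33 ± 0.23. Over the 10 inner arm heavy chains the log2 fold changes ran from -0.33 to 0.05 and 8 were below 0. Over all 15 axonemal heavy chains the median was -0.10. Summed as 1 family, the Dnah7 copies had 867, 794 and 846 CPM against 769, 746 and 740 CPM, a log2 fold change of -0.15 ± 0.06 (adjusted p = 0.295, edgeR).

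The axonemal light chains were all slightly above 0, from 0.11 to 0.17. Dnal4 had 97.3, 93.2 and 93.4 CPM in wild type and 109, 99.7 and 110 CPM in knock-in testis, without overlap, and its log2 fold change was 0.17 ± 0.06 (adjusted p = 0.294, edgeR). Dnali1 had 189, 173 and 170 CPM against 196, 176 and 203 CPM, with overlap and 0.11 ± 0.07.

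Of the cytoplasmic motor subunits, Dync1i2, the intermediate chain that holds dynactin and the light chains, was lower in each knock-in library. It had 178, 164 and 171 CPM in wild type against 157, 147 and 157 CPM, a log2 fold change of -0.16 ± 0.06 (adjusted p = 0.288, edgeR). The heavy chain Dync1h1 had 2752, 2546 and 2694 CPM against 2598, 2535 and 2636 CPM, with overlap and -0.04 ± 0.06. The other dynein-1 subunits ran from -0.14 to 0.05. Dync2li1, the light intermediate chain of dynein-2, had 33.5, 30.5 and 33.6 CPM against 32.3, 36.3 and 39.3 CPM (0.15 ± 0.09), and Dync2h1 was at -0.07 ± 0.07.

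The assembly factors had small fold changes. Dnaaf1 had 1598, 1486 and 1452 CPM in wild type and 1643, 1443 and 1607 CPM in knock-in testis, a log2 fold change of 0.05 ± 0.07 with a 95% interval of -0.10 to 0.20. Dnaaf4, a co-chaperone, had 21.4, 23.2 and 18.9 CPM against 23.3, 21.2 and 23.3 CPM (0.10 ± 0.10). The 6 factors ran from -0.03 to 0.10, all with overlapping groups and with none at an unadjusted p under 0.05.

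Dynein rows of shorter implied length tended to have the higher fold changes, and a weaker trend of the same sign ran through all genes. Across the 40 genes the log2 fold change and the implied length had a Spearman rho of -0.47 and a Pearson r of -0.44 with log length, and across all 15787 tested genes of -0.15 and -0.14. These are descriptions across genes of the same 6 libraries, which are not independent replicates. In the shortest 10% of genes the median log2 fold change was 0.11, and 74 of the 139 genes called higher lay there. In the longest 10% it was -0.03. The shortest 10% held Dynlrb2, Dynlrb1, Dynlt1b, Dynlt1f, Dynll1 and the rows of Dnah2 and Dnah7a, and the longest 10% held 14 heavy chains, whose median log2 fold change was -0.06.

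With the smooth length trend of each library removed, the log2 fold change of Dynlrb2 was 0.36 (adjusted p = 0.161, edgeR), of Dynlt1f 0.17 and of Dynlt1b 0.11. Dynlt1a and Dynll2, whose implied lengths are in the middle of the range, stayed at 0.43 and 0.34, and 0 of 40 passed. The implied length of Dynlt1a, 2505 bases, differed 1.42 times between libraries, and that of its copy Dynlt1b was 997 bases. The length bin and trend-removed value of Dynlt1a are therefore uncertain. Among genes of the same 10% bin of length, Dynlt1a stood at the 95.3rd percentile of log2 fold change, Dynlrb2 at the 92.3rd, Dynll2 at the 91.9th, Dynlt1f at the 74.0th and Dynlt1b at the 65.9th. Dnah8 stood at the 28.6th and Dnah7c at the 15.9th.

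**Figure D4:**
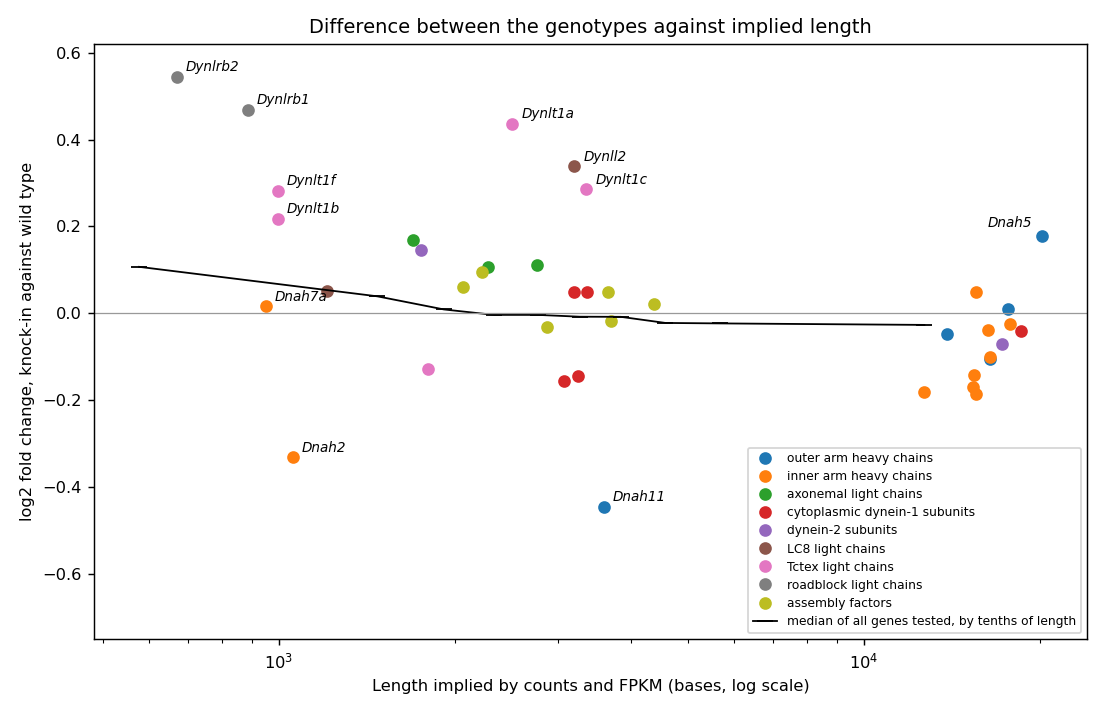
Log2 fold change of each dynein gene against the length implied by its counts and FPKM (log axis), coloured by role; the black line is the median over all tested genes in bins of 10% of genes by length. Of the 9 shared light chains 7 lie above the line (not Dynll1 and Dynlt3), most long heavy chains lie near or below it, and the line itself runs from 0.11 to -0.03.

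Some marker genes of testis cell types also differed between the genotypes. Of 5 elongating spermatid markers, 1 was called higher by edgeR (Prm2, 0.53 ± 0.09, adjusted p = 0.0289), 3 were above 0 and Prm1 was at -0.31 ± 0.12. Their sum was 7457 to 9104 CPM in wild type and 7531 to 9318 CPM in knock-in testis. All 5 peritubular myoid markers were above 0, with a median of 0.25 and sums of 159 to 183 against 186 to 214 CPM. The Leydig markers had a median of 0.23, with 4 of 5 above 0 and sums of 1036 to 1186 against 1221 to 1233 CPM. The 7 multiciliated and efferent duct markers summed to 158 to 182 CPM in wild type and 186 to 196 CPM in knock-in testis, without overlap. Of these, 3 were tested, with a median of 0.14, and the largest part, Deup1, was at 0.16 ± 0.06 (adjusted p = 0.279, edgeR). The 5 epididymal markers summed to 7.84 to 10.1 CPM against 5.65 to 6.93 CPM, nearly all of it Rnase10, at -0.51 ± 0.15 (adjusted p = 0.176, edgeR). Pachytene spermatocyte and round spermatid markers had medians of -0.02 and 0.05, and spermatogonial and Sertoli markers of -0.03 and -0.04, all with overlapping sums. The part of these markers in the dynein values was not tested.

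Genes that work with dyneins were read from lists of 74 genes in all. The nexin-dynein regulatory complex links neighbouring doublets and tunes the inner arms. Of its 11 genes, 1 was called higher by edgeR and 0 lower, against 0.982% of all genes. The gene was Gas8, a core subunit, at 35.3, 33.2 and 34.1 CPM in wild type and 44.5, 50.2 and 44.7 CPM in knock-in testis, and it rose by 0.44 ± 0.08 on the log2 scale (adjusted p = 0.0361, edgeR). It remained called with the length trend removed (0.44, adjusted p = 0.0481). The median of the list was 0.12, with 8 of 11 above 0, and 4 had an unadjusted p under 0.05 with a fold change above 0, against 7.83% of all genes. DESeq2 called 3 of the list, Gas8, Iqcd and Drc7, against 2.91% of all genes.

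In the other lists 0 genes passed the edgeR test, against 0.982% of all genes, and DESeq2 called 1, Ccdc57, against 2.91%. Of 26 dynactin subunits and dynein adaptors, 2 had an unadjusted p under 0.05, against 12.9% of all genes, and the smallest was that of Bicd2, an adaptor (0.22 ± 0.08, adjusted p = 0.299, edgeR). Of 8 outer arm docking and ruler genes the smallest was that of Ccdc63 (0.39 ± 0.14, adjusted p = 0.287, edgeR). Of 18 further assembly co-factors, 6 had an unadjusted p under 0.05, against the same 12.9%, 4 with a fold change above 0 (7.83% of all genes) and 2 below (5.09%), led by Ccdc57 (0.53 ± 0.15, adjusted p = 0.174, edgeR). The dynein chains listed under older symbols numbered 11, of which 10 were tested. Their log2 fold changes had a median of -0.03, and the outer arm intermediate chain Dnaic2 was lowest (-0.21 ± 0.09, adjusted p = 0.354, edgeR).

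The noncoding table listed 34 transcripts whose symbols fit the rule, Dnah2os among them. Of these 9 had 0 counts in all libraries and 9 were tested. None passed the edgeR test (0 of 9, against 0.0968% of 9301 transcripts), 1 had an unadjusted p under 0.05 (8.97% of all), and DESeq2 called 0 (1.18% of all). That transcript was ENSMUST00000154091 of Dynlt3, with 2, 12 and 14 counts in wild type and 44, 27 and 29 in knock-in testis, all knock-in libraries higher. Its log2 fold change was 1.74 ± 0.58 (adjusted p = 0.41, edgeR). Taking it off the gene row left 200, 255 and 201 counts of Dynlt3 in wild type and 172, 184 and 213 in knock-in testis.

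Gene rows of the deposited table may contain the counts of noncoding transcripts of the same symbol. In all but 1 of 7620 rows with such transcripts, the gene count was at least their sum in every library. Rows with few noncoding counts would meet this either way, and how gene rows were built is not given in the sources used here. Set against the gene row, the share of noncoding counts was 77.1% for Dnah7a. The Dnah7a row equalled its noncoding transcript ENSMUST00000189677 in 4 libraries and exceeded it by 106 counts in wild-type library 2 and 135 in knock-in library 3. Its level and fold change (0.02 ± 0.34) thus rest mostly on counts of that transcript. The share was 23.1% for Dnah2 and 9.46% for Dynlt3, and the next was Dynlrb1 with 5.74%.

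Circular RNAs, closed loops made by splicing a downstream donor to an upstream acceptor, were listed for 19 of the 40 genes. There were 107 such circles with 2357 counts in the 6 libraries, 2.39% of all 98762 circle counts, and 63 were tested. None passed the edgeR test (0 of 63, against 0% of 3887 circles), DESeq2 called 0, and 3 had an unadjusted p under 0.05, against 4.91% of all circles. The smallest adjusted p was 0.979. The libraries held 14381 to 20127 circle counts each.

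The dynein circle with the most counts, at chr1:53617725-53623567 (mm10) on the minus strand within Dnah7a, joins annotated exons to a loop of 1058 bases. It had 185, 103 and 144 counts in wild type and 118, 121 and 137 in knock-in testis, with overlapping groups and a log2 fold change of -0.36 ± 0.16 (adjusted p = 0.979, edgeR), and ranked 7th by count among the 7391 circles. The 5 circles of Dnah7a had 878 counts, set against 1053 counts in its gene row. That is 834 circle counts per 1000 gene counts, where the median over 2883 host genes was 2.10. Dnah2 was also high at 157 per 1000 (95 circle counts), and Dnal1 and Dync2h1 stood at 12.5 and 15.3 per 1000. The gene rows of Dnah7a and Dnah2 have implied lengths of only 950 and 1056 bases. Noncoding counts amounted to 77.1% and 23.1% of them. Their ratios therefore do not set circles against whole heavy chain transcripts.

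Dnah8, with the most counts of any dynein gene, had the most circles, 40 with 663 counts, yet only 1.30 per 1000 gene counts. Of these, 12 began at the same position, 30635321 of chromosome 17, with different ends. Dync2h1 had 19 circles with 347 counts. Of these, 4 on the minus strand began, by that strand, at the same position, 6996939 of chromosome 9. Summed over the libraries, Dnah7c had 3.40 per 1000 and Dnah7b 1.03. In single libraries the ratio ran from 1.07 to 6.13 for Dnah7c and from 0.387 to 1.48 for Dnah7b, with overlap. Reads shared between copies limit this contrast further.

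**Figure D5:**
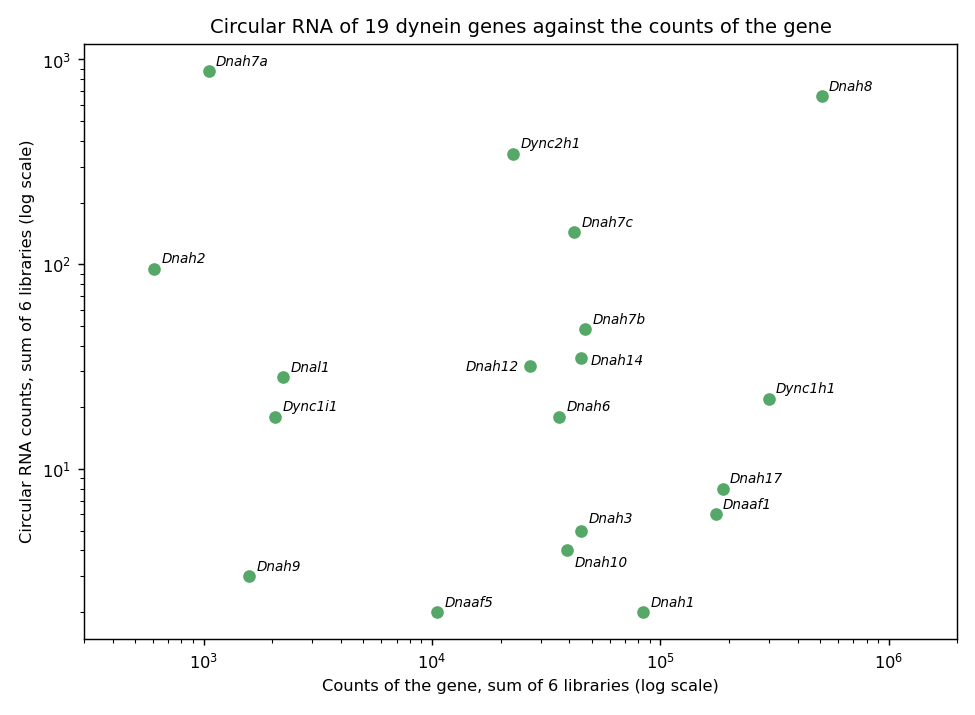
Circular RNA counts of the 19 dynein genes that host circles against the counts of their gene rows, both summed over 6 libraries on log axes. Dnah7a (878 circle counts against 1053 gene counts) stands apart from genes of like circle count such as Dnah8 (663 against 509390). Noncoding counts amounted to 77.1% of the Dnah7a gene row, so its position does not set circles against a whole heavy chain transcript.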

How the data were processed

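RNA of whole testis was sequenced in 3 wild-type and 3 Taf7l knock-in libraries. The authors deposited whole-number counts per feature and library of mRNA genes, of noncoding transcripts and of circular RNAs, per the file headers. They also deposited FPKM for linear RNAs and RPM for circles, and the RPM were not used. The authors' deposited tables add a mean per genotype (a signal for circles), a log2 ratio of the means, and a p-value with its adjusted p-value from a test that is not named. Per the submitters' processing notes, the genome was mm10. Not given in the sources used here are aligner, counter, annotation and strand use, so genes that overlap on opposite strands may share counts.

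Counts were tested across all features of each table with edgeR 4.0.16 (limma 3.58.1, R 4.3.3): TMM scaling, the quasi-likelihood F-test, two-sided, with Benjamini-Hochberg adjustment, and a call at an adjusted p under 0.05. The fits used no covariate. Genes and noncoding transcripts passed filterByExpr (minimum count 10, minimum total 15), and circles needed a count in at least 3 libraries. Standard errors (SE) came from the fold change and its F statistic. The common biological coefficient of variation was 11.06%. Alternatives were RLE and upper-quartile scaling, no filter, DESeq2 1.42.0, limma on log2(FPKM + 0.1) and log2(FPKM + 1), removal of a lowess length trend (span 0.3), the replicate number as a block and each library left out. After seeing the data, noncoding counts were taken off gene rows and near-identical copies were summed. The fits were tested on simulated data. Every per-sample column was mapped to a library, and 0 were left over.

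Named with values were, by rule, in each role class the gene highest in FPKM and that with the smallest unadjusted p, and the 6 largest fitted differences each way; genes outside it were named after their values were seen. Of related lists, the called gene or else the gene with the smallest p was named. Gene positions and promoters came from RefSeq (GRCm38.p6). Gene choice, lists and tests were made with earlier results of these data known.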

Additional observations from a re-analysis of the deposited data

How the results depend on the processing

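The number of all genes called, 155, became 460 with DESeq2, 251 and 263 with limma on log2(FPKM + 0.1) and log2(FPKM + 1), 85 with the length trend removed and 11 to 125 with a library left out (11 without knock-in library 3, 20 without wild-type library 3, 32 without wild-type library 2, 74 without wild-type library 1). The count of dynein genes called, 0, became 3 with DESeq2 and with limma on log2(FPKM + 0.1), 2 with limma on log2(FPKM + 1), and 1 without the filter, and it was 0 without any single library. With the replicate block it was 1 (Dynlt1a, adjusted p 0.0269, edgeR), and 178 genes (1.13%) were called; same-numbered libraries had correlated deviations of 0.137, 0.078 and 0.032, and wild-type library 3 correlated best with knock-in library 2, so the numbers were not taken to pair the libraries. Of 330 recomputed fold changes of 22 named dyneins, 316 kept their direction and side of the threshold, 10 passed it and 4 reversed: Dnah14 at 0.0736 and 0.0717 under the limma settings, Dync1h1 at 0.00239 and Dynll1 at -0.0249 with the length trend removed. The 10 were values of Dynlrb2, Dynlt1a, Dynlt1b and Dynlt1f. The cause was not tested. Counts of 0 for noncoding transcripts and circles were 0 under every alternative run. Precision differed between features: the median SE over the 40 dyneins was 0.08, against 0.22 for Dnah11, with 45 to 70 counts a library, and 0.16 for the dynein circle with the most counts, with 103 to 185.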
